A study of Mus musculus with 6 samples.

Results

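The immunity-related GTPases (Irg family) are interferon-inducible GTPases of mice, and 8 of their genes were followed here: Irgm1, Irgm2, Igtp, Ifi47, Gm12250, Tgtp1, Tgtp2 and Iigp1. They were taken by gene symbol from a table of 46078 genes, and all 8 symbols were found there. The family was selected on values of these same libraries: earlier results for aged against young epithelium, in which several Irg genes were higher, were known when the members were chosen. Their differences between the ages are therefore given as a description, and nothing is supported with them. RNA had been sequenced from untreated epithelial cells of the small intestine of C57BL/6JRj mice, sorted by the submitters as positive for EpCam, an epithelial adhesion molecule, and negative for CD45, the surface protein of leukocytes. The aged group is 3 libraries from mice of 20 to 22 months and the young group is 3 libraries from mice of 2 to 3 months, each taken as 1 mouse. No genotype or treatment separates the groups, and the labels give neither a batch nor a pairing. The labels do not tie a library to an animal, so p-values measure the spread between these libraries.

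Irg proteins act inside the cell that makes them. Interferon-gamma binds its receptor, the JAK kinases are activated, and the pathway acts on gamma-activated sites (GAS) in target promoters, while interferon regulatory factors bind the related interferon-stimulated response element (ISRE). In mice the regulatory Irg proteins Irgm1, Irgm2 and Igtp (also called Irgm3) sit on the membranes of the cell's own organelles and hold the effector Irg proteins in their inactive state. The effectors, among them Iigp1 (Irga6), Tgtp1 and Tgtp2 (Irgb6), Ifi47 (Irgd) and Gm12250 (Irgb10), load onto vacuoles that hold parasites or bacteria and disrupt them.

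The sequences upstream of the start sites are shown because 4 members share a layout of motifs there, and sequence was not used to select them. RefSeq windows of 300 bases (250 before and 50 after the start, GRCm38.p6) were held for 7 of the 8 members, all but Iigp1. A GAS was searched as TTCNNNGAA, which reads the same on both strands, and the core of an ISRE as GAAA, any 2 bases, and GAAA again, on both strands. A GAS match was found in 5 of the 7 windows, against 8.3% of all 32851 windows. The GAAA pair was found in 6 of 7, against 3.44% of all windows, and both were found in 5 of 7, against 0.454%. The windows of Igtp and Irgm2, and those of Tgtp1 and Tgtp2, are closely alike, as given below. The 7 windows are therefore not independent sequences, and the counts are a description only. The stretches below run 5′ to 3′ on the gene's strand and end before the start site. Capitals mark the GAS and the GAAA pair. The positions are chr11:58199481-58199555 for Igtp (plus strand), chr11:58214872-58214947 for Irgm2 (plus), chr11:49064248-49064323 for Tgtp2 (minus), chr11:48992289-48992364 for Tgtp1 (minus), chr11:48927223-48927298 for the relative Gm12185 (minus), chr11:58183722-58183831 for Gm12250 (plus) and chr11:48871421-48871480 for Irgm1 (minus).
Igtp: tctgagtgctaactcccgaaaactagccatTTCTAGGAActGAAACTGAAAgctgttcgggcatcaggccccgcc
Irgm2: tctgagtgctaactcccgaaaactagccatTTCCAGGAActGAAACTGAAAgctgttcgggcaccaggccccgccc
Tgtp2: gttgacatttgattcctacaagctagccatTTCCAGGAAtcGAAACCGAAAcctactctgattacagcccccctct
Tgtp1: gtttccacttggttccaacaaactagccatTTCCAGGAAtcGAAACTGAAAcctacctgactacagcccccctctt
Gm12185: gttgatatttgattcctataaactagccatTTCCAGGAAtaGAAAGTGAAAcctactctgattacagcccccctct
Gm12250: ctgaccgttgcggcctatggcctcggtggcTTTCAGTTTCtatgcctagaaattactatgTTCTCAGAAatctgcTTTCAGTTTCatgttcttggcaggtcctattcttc
Irgm1: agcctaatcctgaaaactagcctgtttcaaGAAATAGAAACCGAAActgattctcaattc

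In Igtp, Irgm2, Tgtp1 and Tgtp2 the GAS lay directly before the GAAA pair, with 2 bases between them. This arrangement was searched in all windows only after it had been seen in the members. It was present in 5 of 32851 windows (0.015%), those of the 4 members and of Gm12185, a further Irg gene that RefSeq also names Irgb2b1. Gm12250 held a GAS between GAAA pairs on the opposite strand. Irgm1 held overlapping GAAA pairs, which share 1 copy of GAAA, and no GAS, and the Ifi47 window held neither. The Igtp and Irgm2 windows were 91.1% identical over 271 aligned bases, and those of Tgtp1 and Tgtp2 85.4% over 192. Apart from that of Irgm1, which lies in an exon of a non-coding Irgm1 transcript of GENCODE M21, the stretches overlap no annotated exon. A match of letters describes the sequence only. Whether any factor was bound there was not measured in these libraries.

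**Figure D1:**
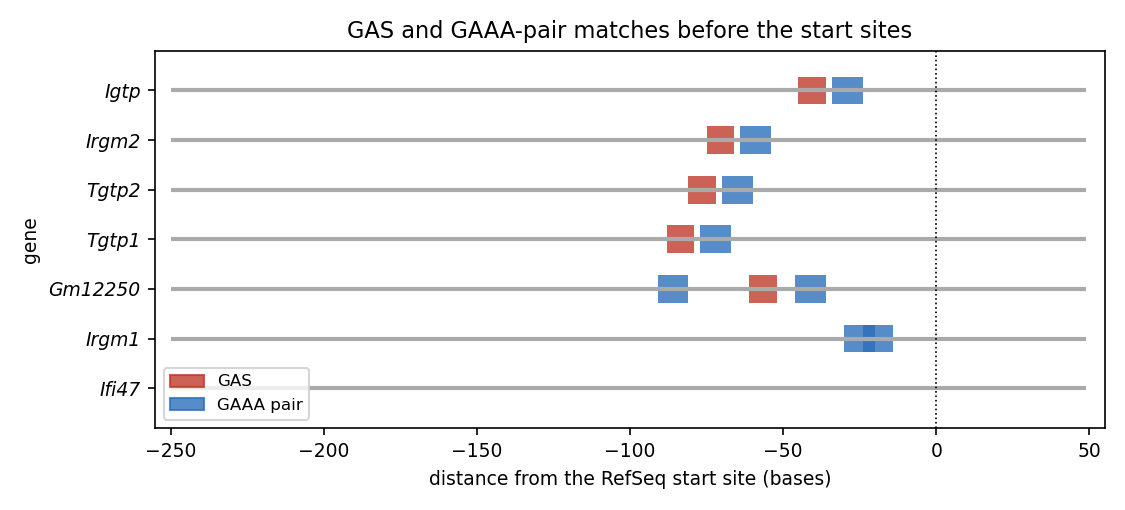
Positions of GAS (red) and GAAA-pair (blue) matches in the RefSeq windows of 7 Irg genes, as distance in bases from the start site (dotted line). In Igtp, Irgm2, Tgtp2 and Tgtp1 a GAS stands directly before a GAAA pair, Gm12250 and Irgm1 hold other layouts, and Ifi47 holds no match.

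All 8 members passed the filter on low counts, and 7 of 8 were called higher in aged libraries by edgeR's quasi-likelihood test at a Benjamini-Hochberg adjusted p below 0.05, where 0.623% of the 14923 genes tested were called higher. Since the members were chosen on this contrast, nothing is read from that count. In all 8 genes every aged library lay above every young one, which held for 6.30% of the genes tested. Tgtp1, Tgtp2 and Iigp1 lay under the filter's limit of 0.215 CPM (each library's counts as a share of its total, with the total scaled by TMM factors and set to 1e6) in every young library, so they passed through their aged values alone. The log2 fold changes of aged over young ran between 0.98 for Irgm1 and 5.80 for Iigp1. Their median was 2.52, and that of all genes tested was 0.0065. In bulk RNA, more cells that express a gene and more RNA per cell cannot be told apart. The count of members called was 4 without young replicate 3, 5 without young replicate 1, and between 6 and 7 without each other library.

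**Figure D2:**
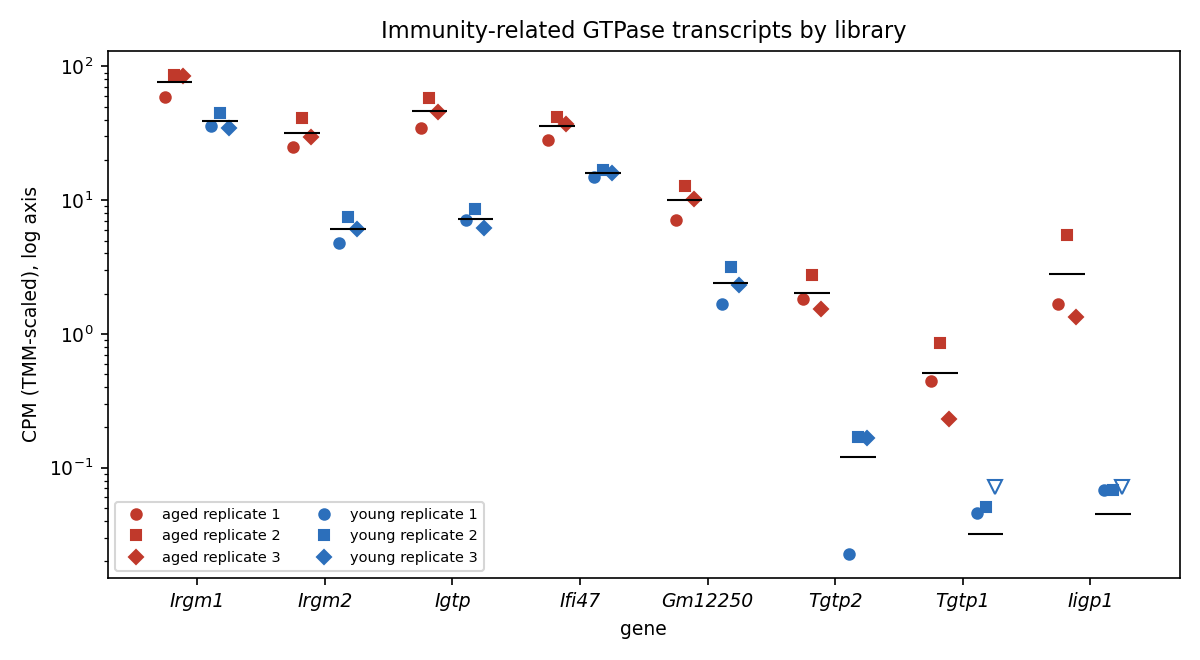
CPM of each Irg gene in each library on a log axis, aged libraries (red) left of young libraries (blue), with the group mean as a bar. In every gene the 3 aged points lie above the 3 young ones. Open triangles mark libraries with 0 counts, drawn at the level of 3 counts.

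The regulatory genes made up most of the family's transcripts. Irgm1, which in mice is tied to autophagy and the control of mycobacteria, stood at 58.9, 86.8 and 84.2 CPM in the aged libraries and at 36.1, 45.2 and 34.9 CPM in the young ones. It had the smallest change of the members, with a log2 fold change of 0.98 ± 0.16 (SE, n = 3 each), and the lowest aged library was 1.3 times the highest young one. Its call was lost on leaving out aged replicate 2 or 3, or young replicate 1 or 3. Igtp, an Irg protein of the endoplasmic reticulum and lipid droplets, stood at 34.5, 58.3 and 45.5 CPM in aged and at 7.07, 8.56 and 6.19 CPM in young libraries. Its lowest aged value was 4.03 times its highest young value, and its log2 fold change was 2.66 ± 0.20. Irgm2, a Golgi-associated regulator, stood at 25.1, 40.9 and 29.7 CPM in aged and at 4.78, 7.44 and 6.12 CPM in young libraries, a log2 fold change of 2.38 ± 0.22. Both calls held without each single library.

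The annotations of Igtp and Irgm2 overlap, so their counts are not fully independent. In GENCODE M21 (GRCm38) Igtp spans chromosome 11 from 58199556 to 58207591 on the plus strand and Irgm2 from 58199618 to 58222782 on the same strand. They share 162 exonic bases, which is 8.01% of the exonic length of Igtp and 4.39% of that of Irgm2. RefSeq places the start of Irgm2 at 58214977, downstream of Igtp. Of the windows of 50 bases in Igtp transcripts, 11.8% also occur in Irgm2 transcripts. With the pair summed into 1 gene the log2 fold change was 2.54.

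Among the effectors, Ifi47 and Gm12250 were the more abundant. Ifi47 stood at 28.4, 41.7 and 37.4 CPM in aged and at 15.0, 16.9 and 16.0 CPM in young libraries, a log2 fold change of 1.17 ± 0.14. The young libraries lay close together (SD 0.967 CPM), and the aged ones had an SD of 6.77 CPM. Gm12250, whose product in mice acts on the membranes of bacteria and of the vacuoles around them, stood at 7.10, 12.8 and 10.2 CPM in aged and at 1.68, 3.16 and 2.33 CPM in young libraries. Its log2 fold change was 2.06 ± 0.28, and its call was lost without young replicate 3. GENCODE M21 lists Gm12250 as a processed pseudogene of 1 exon with 1274 bases, whereas RefSeq lists it as protein-coding over a longer span, so its counts may cover part of the transcript only.

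The vacuole-coating effectors Tgtp2, Tgtp1 and Iigp1 were at or near 0 in young epithelium. Tgtp2 held 86, 126 and 87 counts in aged and 1, 10 and 7 counts in young libraries. Its group means were 2.04 ± 0.637 CPM in aged and 0.120 ± 0.0842 CPM in young libraries (SD, n = 3 each), a log2 fold change of 4.02 ± 0.48. Tgtp1 held 21, 39 and 13 counts in aged and 2, 3 and 0 counts in young libraries, and was the member that was not called. Iigp1 held 79, 249 and 76 counts in aged and 3, 4 and 0 counts in young libraries. Its aged replicate 2 stood apart, at 5.46 CPM, where the other aged libraries held 1.67 and 1.35 CPM.

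For these low genes the summed counts give the size of the change with its counting error. Iigp1 had 404 counts over the aged and 7 over the young libraries, a ratio of 56.1 after scaling, with an exact 95% interval of 27.0 to 140. For Tgtp2 the sums were 299 and 18 counts and the ratio 16.1 (10 to 27.6). For Tgtp1 they were 73 and 5 counts and the ratio 14.2 (5.81 to 45.0). These intervals cover counting error only, and not the spread between mice. Without aged replicate 2 the fitted fold change of Iigp1 was 29.9 in place of 55.8, and that of Tgtp1 9.13 in place of 13.7. The Iigp1 call was lost without any 1 of the young libraries, and Tgtp1 was called without aged replicate 3.

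Tgtp1 and Tgtp2 are near-identical copies, and counts of each are uncertain. Of the windows of 50 bases in Tgtp1 transcripts 79.4% also occur in Tgtp2 transcripts, and 85.8% of those in Tgtp2 occur in Tgtp1. The sources do not state how reads that match both copies were counted, so the level of the pair may be understated and its split between the copies may be arbitrary. Summed into 1 gene the pair had a log2 fold change of 4.0. Tgtp1 also shares 223 exonic bases with Gm12185 on its own strand. For the other members, windows found in any other gene made up between 0.00% (Gm12250) and 2.54% (Ifi47), apart from the Igtp and Irgm2 pair.

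Levels between genes were compared per kilobase of annotated exon. In aged epithelium Igtp stood first at 22.8 ± 5.89 CPM per kb (SD, n = 3), followed by Ifi47 at 14.5 ± 2.74 and Irgm1 at 13.2 ± 2.66 CPM per kb. Irgm2 at 8.65 ± 2.20 and Gm12250 at 7.89 ± 2.25 CPM per kb came next, and Tgtp2 (0.696 ± 0.217), Iigp1 (0.486 ± 0.393) and Tgtp1 (0.159 ± 0.0989) last. In young epithelium Irgm1 (6.67 ± 0.973) and Ifi47 (6.46 ± 0.391 CPM per kb) led, followed by Igtp (3.60 ± 0.590), Gm12250 (1.88 ± 0.582) and Irgm2 (1.66 ± 0.361). Tgtp2 (0.0408 ± 0.0287), Tgtp1 (0.0100 ± 0.00871) and Iigp1 (0.00778 ± 0.00674) were lowest there. Per kb, Igtp was thus ahead of Irgm1 in each aged library and behind it in each young one. In CPM, without the lengths, Irgm1 was ahead of Igtp in every library. The order per kb depends on annotated exonic lengths of 5810 bases for Irgm1 and 2022 bases for Igtp. GENCODE extends Irgm1 to 48861968, where RefSeq stops at 48865245, so its level per kb may be understated. The ranges of Ifi47 and Irgm1, of Irgm2 and Gm12250, and of Tgtp2 and Iigp1 overlapped in aged libraries, as did those of Irgm1 and Irgm2 and of Iigp1 and Tgtp1. In young libraries the ranges of Irgm1 and Ifi47 and of Gm12250 and Irgm2 overlapped. Those of Tgtp2, Tgtp1 and Iigp1 all overlapped each other there. Across the 8 genes the log2 fold change was larger where the young level per kb was lower (Spearman rho of -0.9), a description in which both quantities contain the young values.

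The 8 genes together held 157.9, 249.5 and 210.3 CPM in aged and 64.8, 81.6 and 65.7 CPM in young libraries. The ratio of the group means was 2.91. The make-up of this pool differed between the ages. Irgm1 supplied 37.4 ± 2.63% of it in aged and 54.8 ± 1.45% in young libraries (SD, n = 3 each). Igtp supplied 22.3 ± 0.933% in aged and 10.3 ± 0.764% in young libraries, and Irgm2 15.5 ± 1.17% in aged and 8.6 ± 1.07% in young ones. The share of Ifi47 was 17.5 ± 0.699% in aged and 22.7 ± 1.83% in young libraries. For all 8 genes, these 4 included, the shares of the age groups did not overlap. Such shares restate the unequal fold changes of the members and are a description only. The 5 effectors together held 24.9 ± 0.665% of the pool in aged and 26.3 ± 1.63% in young libraries, a difference within the spread of the young libraries. Per kilobase of exon, however, their share was 34.7 ± 0.063% in aged and 41.4 ± 2.07% in young libraries, and these shares did not overlap.

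**Figure D3:**
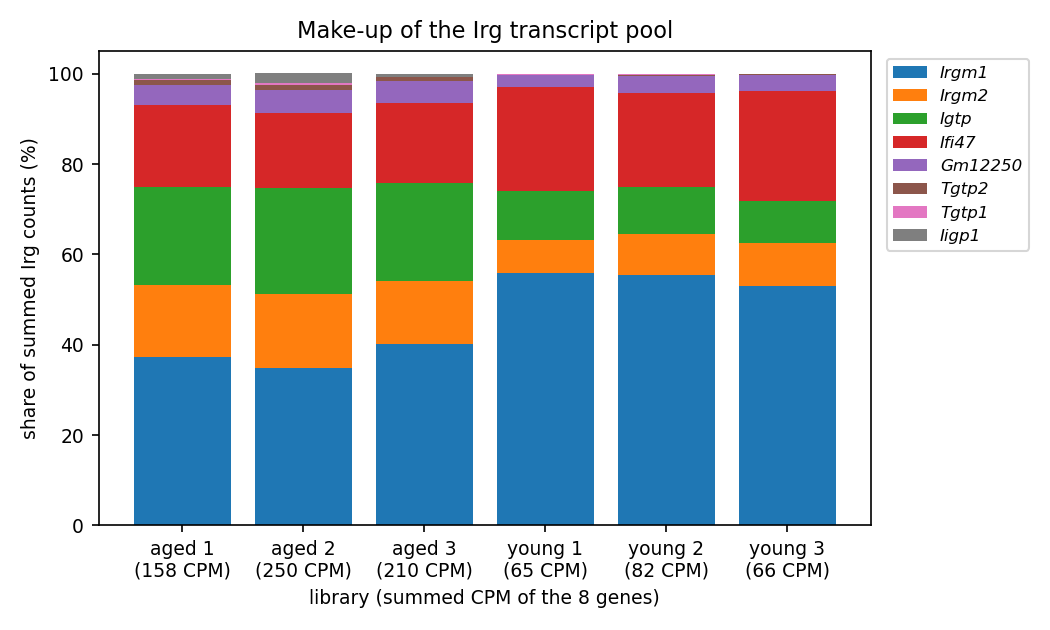
Share of each gene in the summed counts of the 8 Irg genes, in percent, per library, with the summed CPM under each bar. Irgm1 fills a smaller part of the aged bars than of the young bars, and Igtp and Irgm2 fill a larger part.

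The order of the libraries within an age was compared between the members. Aged replicate 2 held the highest aged value of all 8 genes. Aged replicate 1 held the lowest aged value of 5 genes, and aged replicate 3 that of the other 3, which were Iigp1, Tgtp1 and Tgtp2. Among the young libraries, replicate 2 was highest for 7 of 8 genes, all but Iigp1, and it was also the deepest library of the series. Aged replicate 2, in contrast, had the lowest total of the aged libraries, at 45328055 counts. A link of these orders to depth was not tested. The spread among aged mice was narrowest for Ifi47 (coefficient of variation 18.9%) and Irgm1 (20.1%) and widest for Tgtp1 (62.2%) and Iigp1 (80.8%), which held 73 and 404 counts over the aged libraries.

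The members lie in clusters, and their neighbours offered a comparison that the selection did not use. Irgm1 (48861968 to 48871683), Tgtp1 (48985327 to 48994172), Tgtp2 (49057194 to 49064206) and Ifi47 (49076587 to 49096974) fall within 235.0 kb of chromosome 11 (GRCm38). Gm12250 (58187739 to 58189012), Igtp and Irgm2 fall within 35.0 kb, about 9091 kb further along the same chromosome, and Iigp1 lies on chromosome 18. Of the 32 genes within 150 kb of the chromosome 11 clusters that are no Irg gene, 17 could be tested and 0 were called in either direction by edgeR, where 0.623% of all genes tested were called higher and 0.784% lower, so a count of 0 among 17 is near the background. Their log2 fold changes ran between -0.49 and 0.25 with a median of 0.04. Psme2b, a gene between the Irg genes of the first cluster, had a log2 fold change of 0.25 ± 0.23 (adjusted p = 0.845, edgeR). Mrpl22 and Gemin5, beside Gm12250, had 0.13 ± 0.09 and 0.15 ± 0.11, and Trim7, beside Irgm1, had 0.04 ± 0.13.

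**Figure D4:**
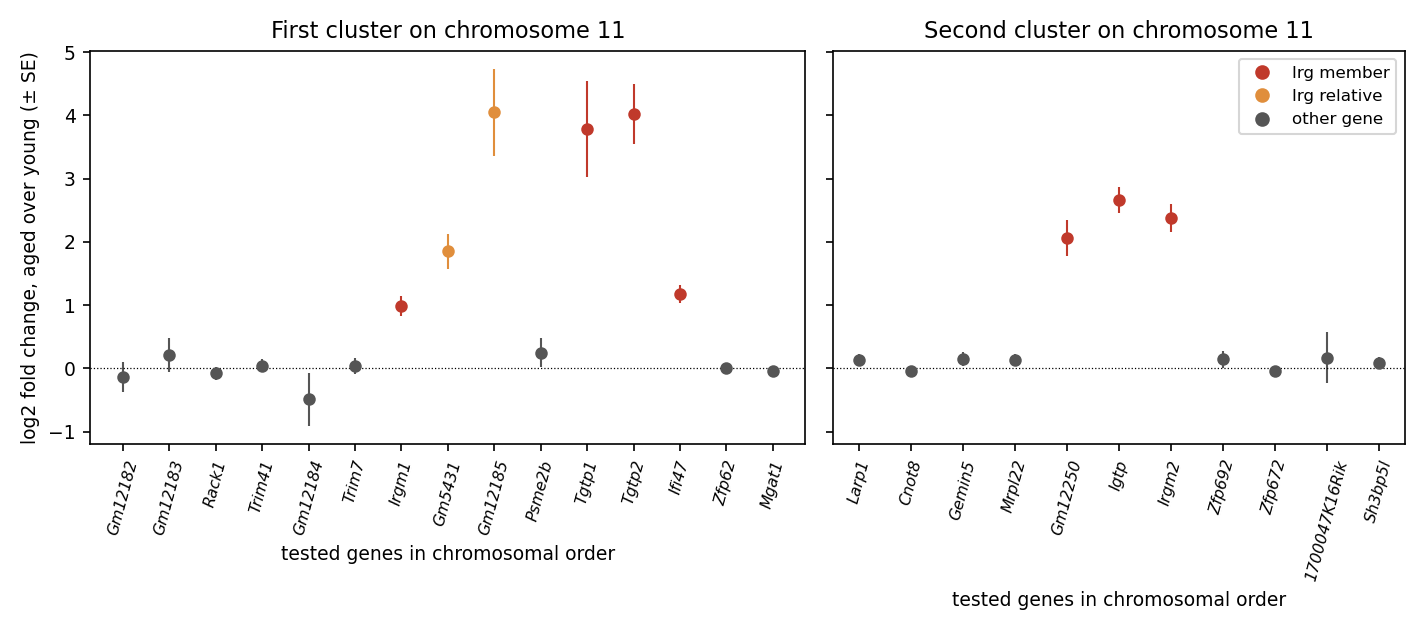
Log2 fold change of aged over young (± SE) for every tested gene of the chromosome 11 clusters and their flanks of 150 kb, in chromosomal order. Irg members (red) and Irg relatives (orange) stand above the other genes (grey), which lie between -0.49 and 0.25.

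Irg relatives outside the 8 members were counted too, as a list that was also chosen with results of these data known. The counts covered 9 relatives, of which 3 could be tested, and 2 of these rose in aged mice. Over all genes tested 0.623% were called higher. As for the members, nothing is read from that count of relatives. Gm5431 stood at 1.48 ± 0.296 CPM in aged and 0.407 ± 0.0591 CPM in young libraries, a log2 fold change of 1.85 ± 0.28 (adjusted p = 0.0137, edgeR). Gm12185 held 92, 206 and 129 counts in aged and 0, 20 and 6 counts in young libraries, a log2 fold change of 4.05 ± 0.69 (adjusted p = 0.0340, edgeR). Since 1 young library alone was above the filter's limit of 0.215 CPM, Gm12185 passed through its aged values, as 3 of the members did. Its own start site lies apart from Tgtp1, but a GENCODE transcript of Gm12185 begins in the exon it shares with Tgtp1. Gm5431 lost its call on leaving out aged replicate 1 or 2, or young replicate 1 (adjusted p up to 0.0731), and Gm12185 on leaving out aged replicate 1 or 2, or young replicate 3 (up to 0.183), with limma-voom and without a filter. Irgq, a relative that lacks the typical nucleotide-binding residues, stood at 48.9 ± 2.98 CPM in aged and 45.4 ± 2.70 CPM in young libraries (adjusted p = 0.822). The untested 9930111J21Rik2 held 7, 9 and 9 counts in the aged libraries and 0 in each young one.

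Among genes of the interferon-gamma pathway, the receptor was not called, while the transcription factors listed were partly higher. Ifng, the ligand gene, held 1 count over the 6 libraries. A library with 0 counts of Ifng allows a level of up to 0.0720 CPM. Ifngr1, the ligand-binding chain, stood at 177.4 ± 6.04 CPM in aged and 175.8 ± 9.38 CPM in young libraries (adjusted p = 0.982), and Ifngr2, the signalling chain, at 121.6 ± 7.92 CPM in aged and 143.4 ± 26.0 CPM (adjusted p = 0.671). Of 13 tested kinases and transcription factors 5 rose and 0 fell, with a list median of 0.36. Over all genes tested 0.623% were called higher and 0.784% lower. The list was chosen with earlier results of these data known, so the count is a description only. The 5 include Ciita and Nlrc5, the transactivators of antigen presentation given below. Irf1, a factor that itself is an interferon target and binds ISREs, rose to 333.8 ± 17.2 CPM in aged libraries, against 213.0 ± 26.2 CPM in young ones (log2 fold change 0.65 ± 0.10, adjusted p = 0.0130). Irf8, a partner of Irf1 in many cells, rose by a log2 fold change of 0.48 ± 0.09 (adjusted p = 0.0443), and Batf2, a basic leucine zipper factor, by 0.70 ± 0.13 (adjusted p = 0.0412).

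The transactivators of antigen presentation rose by more. Ciita, that of MHC class II, rose by a log2 fold change of 3.83 ± 0.36 (adjusted p = 0.00656), and Nlrc5, that of class I, by 3.91 ± 0.59 (adjusted p = 0.0421). The kinases Jak1, Jak2 and Tyk2 had log2 fold changes between 0.10 and 0.12. Irf1, Batf2 and Nlrc5 each lost their calls on leaving out aged replicate 1 or 2, or young replicate 1 or 3, with adjusted p up to 0.0765, 0.170 and 0.256, and Nlrc5 also without young replicate 2. Batf2 also lost its call with limma-voom and with a minimum of 1 CPM in 3 libraries, and Nlrc5 without a filter. The call of Irf8 was lost on leaving out any 1 of the 6 libraries (adjusted p up to 0.197), with limma-voom and with the minimum of 1 CPM. The call of Ciita was lost only on leaving out young replicate 3 (adjusted p = 0.0577), among the single libraries.

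Of 11 inhibitors of cytokine signalling 1 rose and 0 fell (median 0.05), where 0.623% of all genes tested were called higher and 0.784% lower. That was Ptpn6, the phosphatase SHP-1, at 38.8 ± 1.97 CPM in aged and 26.8 ± 1.7 CPM in young libraries (log2 fold change 0.54 ± 0.09, adjusted p = 0.0183), a call lost on leaving out aged replicate 1 or 2, or young replicate 1 or 3 (adjusted p up to 0.107). Socs1, a feedback inhibitor of the pathway, stood at 5.36 ± 0.644 CPM in aged and 3.66 ± 0.578 CPM in young libraries (adjusted p = 0.266). Receptors of the other interferons had 0 called of 4 tested (median -0.02), a count near the background. Ifnar1 and Il10rb had log2 fold changes of 0.00 ± 0.07 and -0.10 ± 0.09. Of the type I and III interferon genes listed, Ifna4, Ifnb1, Ifnk and Ifnl3 had 0 counts in all libraries, and Ifne and Ifnl2 held 1 count each in all.

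**Figure D5:**
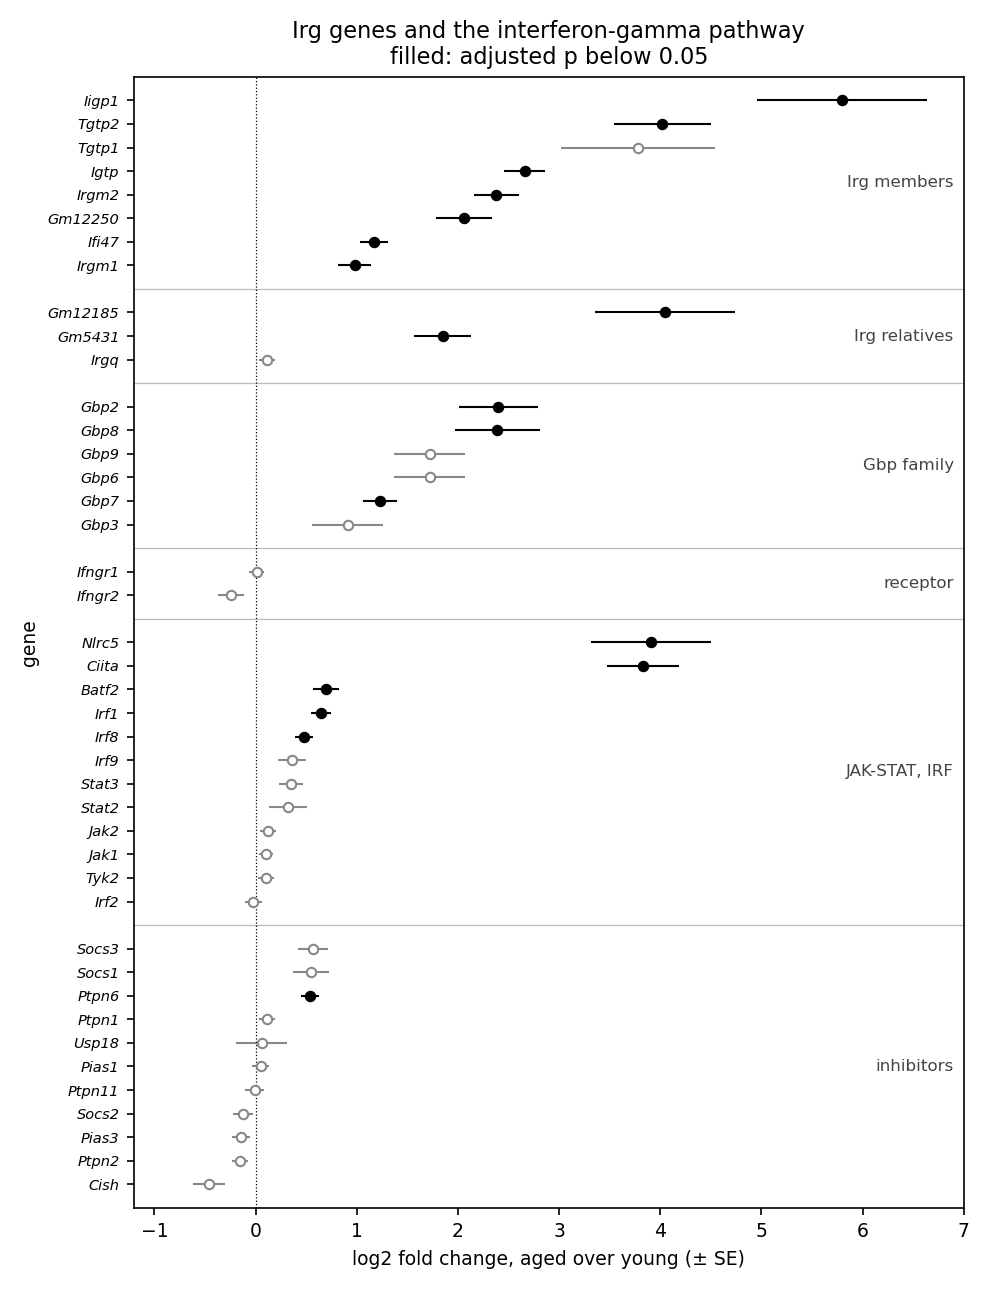
Log2 fold change of aged over young (± SE) for the 8 Irg genes, their tested relatives, the Gbp family and selected genes of interferon-gamma signalling. Filled points passed an adjusted p of 0.05 in edgeR. The Irg genes lie between 0.98 and 5.80, and the receptor chains Ifngr1 and Ifngr2 at 0.01 and -0.24.

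Genes of autophagy and genes that act with the Irg proteins at vacuoles were counted next. Of all genes tested, 0.623% were called higher and 0.784% lower. At these shares a count of 0 in a short list is near the background. The Atg8 conjugation system, which in mouse cells is needed for Irg proteins to find their target vacuoles, had 0 of 19 tested genes called and a median log2 fold change of -0.04. Gabarap, an Atg8 protein, stood at 189.3 ± 7.19 CPM in aged and 199.9 ± 3.85 CPM in young libraries (adjusted p = 0.828), and Becn1, an initiator of autophagy, at 192.6 ± 5.22 CPM in aged and 189.3 ± 3.23 CPM in young libraries (adjusted p = 0.962). Ubiquitin genes and adaptors that gather at such vacuoles had 0 of 8 called (median 0.09), with a log2 fold change of -0.07 ± 0.07 for Nbr1, an autophagy receptor. Before adjustment 1377 of the 14923 genes tested had a p below 0.05 in edgeR, and 210 were called after adjustment.

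Other inducible GTPases were measured beside the Irg genes. Of 6 tested guanylate-binding protein genes, which encode partners of the Irg proteins at pathogen vacuoles, 3 rose and 0 fell (median 1.72). Gbp7 stood at 4.99 ± 0.627 CPM in aged and 2.12 ± 0.0571 CPM in young libraries (adjusted p = 0.0101), Gbp2 at 4.53 ± 1.79 CPM in aged and 0.840 ± 0.391 CPM in young libraries (adjusted p = 0.0218), and Gbp8 at 1.45 ± 0.557 CPM in aged and 0.269 ± 0.109 CPM in young libraries (adjusted p = 0.0303). Gbp7 lost its call without aged replicate 2 (adjusted p = 0.0598), Gbp2 without aged replicate 2, young replicate 1 or young replicate 3, and Gbp8 without any 1 library but aged replicate 3 (up to 0.108 and 0.142). Gbp8 also lost its call with limma-voom. The antiviral genes Mx1 and Mx2 were not called, with log2 fold changes of 0.69 ± 0.49 and 0.50 ± 0.27. Of 12 tested further effectors of interferon-gamma, 0 were called (median 0.37). The proteasome activator Psme1 had 0.32 ± 0.08 (adjusted p = 0.141) and the tryptophan tRNA ligase Wars 0.08 ± 0.10 (adjusted p = 0.887). In all, 11 of 80 tested genes of the 10 pathway lists rose and 0 fell, where 0.623% of all genes tested were called higher and 0.784% lower. The lists were chosen with earlier results of these data known, so the count is no independent evidence. Leaving out a library moved this count between 1, when aged replicate 2 was left out, and 12, when it was aged replicate 3, and it was 3 on leaving out aged replicate 1, or young replicate 1 or 3.

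The genes whose pattern over the 6 libraries was most like the members' mean standardised level were sought among 12327 others with at least 1 CPM. The highest Pearson r belonged to Tapbpl (0.997), which encodes a peptide editor of MHC class I. Got2 (0.994), Ly6a (0.993), Gm10451 (0.990), Ciita (0.989), B4galnt4 (0.987), Nol3 (0.986) and Itgam (0.986) followed. The 6 libraries form separate age groups, so these values mostly carry the difference between the ages and are a description only. Tapbpl rose by a log2 fold change of 0.55 ± 0.08 (adjusted p = 0.0130, edgeR), and Ly6a, a surface protein that interferons induce, by 1.66 ± 0.25 (adjusted p = 0.0142). Both calls were lost on leaving out aged replicate 2, or young replicate 1 or 3, and that of Ly6a also on leaving out aged replicate 1 (adjusted p up to 0.0731 for Tapbpl and 0.0716 for Ly6a). Got2, a mitochondrial transaminase, and Nol3, an inhibitor of cell death, were not called (adjusted p = 0.506 and 0.489).

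Markers of the sorted cells and of other cells were measured in the same libraries, whose totals ran from 41479573 to 58989166 counts. Epcam stood at 1510 ± 11.3 CPM in aged and 1656 ± 18.3 CPM in young libraries (SD, n = 3 each), and 0 of 12 epithelial markers were called. Ptprc, which encodes CD45, stood at 0.230 ± 0.0403 CPM in aged and 0.235 ± 0.0611 CPM in young libraries. The T lymphocyte list summed to 10.5, 5.11 and 9.37 CPM in aged and 5.82, 4.89 and 5.47 CPM in young libraries, and 1 of its 6 tested genes rose. That was the integrin gene Itgae, at 3.4 ± 0.582 CPM in aged and 1.16 ± 0.214 CPM in young libraries (adjusted p = 0.0129), a call lost on leaving out aged replicate 1 or young replicate 3 (adjusted p up to 0.0749). In that list 7 genes of the T cell receptor complex summed to 1.5, 0.285 and 0.962 CPM in aged libraries. The young libraries held 0.933, 0.947 and 0.792 CPM of them, within the aged range. Over all genes tested 0.623% were called higher and 0.784% lower.

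Markers of macrophages, dendritic cells and neutrophils summed to 67.3, 74.9 and 53.9 CPM in aged and 44.2, 48.0 and 47.4 CPM in young libraries, and 1 of 5 tested genes rose. That was Itgam, an integrin gene, at 21.6 ± 1.18 CPM in aged and 12.6 ± 0.681 CPM in young libraries (adjusted p = 0.00726). The sums came mostly from Itgam, Cd14 (27.2 ± 7.16 CPM in aged, 18.6 ± 3.16 CPM in young) and Cd68 (14 ± 3.98 and 12 ± 4.45 CPM). Of the other tested genes of that list, Ptprc had a log2 fold change of -0.06 ± 0.38 and Lyz2 of -0.53 ± 0.24. Xcr1, Ly6g, S100a8 and S100a9 of that list had 0 counts in all libraries, and Adgre1, a defining macrophage gene, held 1 count in aged and 1 in young libraries. B and plasma cell markers summed to 3.68, 3.99 and 2.87 CPM in aged and 3.07, 2.52 and 2.81 CPM in young libraries, with 0 of 2 tested genes called. Stromal and endothelial markers summed to 3.20 to 3.55 CPM in aged and 3.48 to 4.63 CPM in young libraries, with 0 of 2 called. For these lists too, 0.623% of all genes tested were called higher and 0.784% lower, so a count of 0 among 2 is near the background. All 8 Irg genes had their highest aged value in aged replicate 2. In that library the sum of the macrophage, dendritic cell and neutrophil list and that of the B and plasma cell list were the highest of the aged libraries. Its T lymphocyte sum was the lowest. The part of these cells in the Irg levels was not tested.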

How the data were processed

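The submitters deposited raw counts per gene, which the authors had not normalised, as whole numbers with unequal totals show. Per the submitters' processing notes the build was GRCm38 and featureCounts 1.6.4 was among the tools, without stated roles. The kit was stranded, per the labels' protocols. For the strand setting, multi-mapping reads and annotation release nothing is stated. Totals lay between 41479573 and 58989166 counts. Replicates differed beyond sampling noise (chi-square of at least 27.2 per gene for each same-age pair), so none was counted as a repeat.

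Genes were filtered with filterByExpr (minimum count 10), scaled with TMM and tested with edgeR 4.0.16 (R 4.3.3) by the robust quasi-likelihood test with age as the only term, all 6 libraries, and Benjamini-Hochberg adjustment over 14923 genes. The SE is the log2 fold change over the square root of F. A count of 0 allows up to 3 counts, or 0.0507 to 0.0720 CPM, which covers counting error only. Exonic lengths and positions are from GENCODE M21, and sequences from RefSeq (GRCm38.p6). Alternatives used DESeq2 1.42.0, limma 3.58.1 and sva 3.50.0. The fits were tested on simulated data. Members and lists were chosen with earlier results of these data known. Genes were named by rule: all 8 members, up to 4 called genes per list or else its 2 most abundant, 8 genes most alike, and Ifng, Ifngr1, Ifngr2, Irf1, Socs1, Epcam and Ptprc. Some genes that the rule takes are not reported here. Other genes named (Irf8, the kinases, neighbours, interferons and genes at 0) were chosen after their values were seen. Replicates were numbered in record order and are not paired.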

Additional observations from a re-analysis of the deposited data

How the results depend on the processing

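The 8 members were refitted in 14 alternative settings on the same libraries, which gave 111 values of gene and setting. These values are not independent of each other. In them no log2 fold change reversed, and 95 kept their side of the threshold. In 11 the call was lost (6 for Irgm1, 4 for Iigp1, 1 for Gm12250), and in 5 Tgtp1 was called, 1 of them as its sum with Tgtp2. Igtp, Irgm2, Ifi47 and Tgtp2 kept their calls in 14 of 14 alternatives. In 1 of these the sum of a pair stands for each of its genes. The members' count ran between 4 and 7 without 1 library, was 6 without a filter, 8 with DESeq2, and 6 of 6 with the overlapping or near-identical pairs summed. Irgm1 lost its call with 1 surrogate variable and without a filter, Iigp1 without a filter. Summing Ifi47 with Olfr56, which share 111 exonic bases, was added after seeing the data and left 7 members called.

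Over all genes 210 were called (93 higher, 117 lower), 491 with DESeq2, 413 without a filter, 137 with at least 1 CPM in 3 libraries, and between 67 and 270 without 1 library. Of the pathway lists 11 genes were called, 19 with DESeq2, 17 without a filter, 7 with limma-voom, and between 1 and 12 without 1 library. The cause was not tested. No paired analysis was possible because the labels give no replicate numbers. Depth limits Iigp1, Tgtp1 and Tgtp2, which held 10 counts or fewer in each young library.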
